A study of Sus scrofa with 18 samples.

Results

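The brain proteoglycan and perineuronal matrix genes described here are NCAN, BCAN, VCAN, ACAN, HAPLN1, HAPLN2, HAPLN4, TNC, TNR and PTPRZ1. They were chosen by name, and all 10 of 10 were found among the 31908 genes of the deposited gene table and had enough counts to be tested, as had 16325 genes in all. Whole brains of pig fetuses, from Landrace x Large White gilts bred to 1 boar line (LR-M6), were collected without treatment at gestation days (GD) 45, 60 and 90, with 3 female and 3 male fetuses at each day. Each of the 18 fetuses gave 1 library, named here by sex, gestation day and piglet number as its replicate. Each female had the same litter size as 1 male of the same day, and the dams differed between days, so gestation day and dam cannot be told apart. In whole brain RNA, fewer cells of a type and less RNA per cell cannot be told apart either.

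The brain has an extracellular matrix with little fibrillar collagen, built on hyaluronan, a long unsulfated sugar chain. Lecticans (neurocan, brevican, versican and aggrecan) are proteoglycans that bind hyaluronan with one end of the core protein and carry chondroitin sulfate chains in the middle. Link proteins of the HAPLN family lock that binding, tenascins cross-link the other ends of lecticans, and PTPRZ1 is a receptor phosphatase of glia whose secreted form, phosphacan, is itself a chondroitin sulfate proteoglycan. The matrix of the young brain is known to be rich in versican and neurocan and loose, while a denser form, the perineuronal net, later wraps certain neurons, among them those with parvalbumin.

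The lecticans and their link proteins lie side by side in the genome, and positions are those of the deposited table on Sscrofa11.1. NCAN (chr2:58638805-58669705, minus strand) and HAPLN4 (chr2:58617205-58634464, plus strand) had 4340 bases between them, BCAN (chr4:93432335-93450827) and HAPLN2 (chr4:93462308-93467802) had 11480, and VCAN (ending at chr2:91811208) and HAPLN1 (chr2:91857564-91907351) had 46355. ACAN (chr7:54449588-54520153) shared 456 bases with HAPLN3 on the other strand, and whether counting used the strand is not given in the sources used here, so reads in that stretch are uncertain. Gene models bear on the values of 2 members. The deposited VCAN model starts at chr2:91358399 and takes in the neighbouring gene XRCC4 of RefSeq, and the HAPLN4 model takes in TM6SF2. Exons lying inside VCAN itself held 99.1% of the VCAN model's exon counts, and those inside HAPLN4 held 99.5% of the HAPLN4 model's, although the exon table held just 14.4% of HAPLN4's gene counts.

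Chondroitin sulfate chains are attached at serines followed by glycine, and the coding sequence shows how unequal the members are in such pairs. In the longest RefSeq coding sequence, ACAN held 157 serine-glycine codon pairs in 2473 codons (6.35 per 100 codons), VCAN 38 in 3401 (1.12) and NCAN 14 in 1362 (1.03). BCAN held 6 pairs (0.599 per 100 codons), PTPRZ1 16 (0.688), TNC 25 (1.02), TNR 13 (0.957), HAPLN4 4 (0.976), HAPLN1 1 and HAPLN2 0, and a pair is not by itself a site that carries a chain. VCAN has 2 large coding exons that splicing can include or skip. The exon of 2940 bases (chr2:91746365-91749304), known as the alpha attachment region, held 6 pairs in 979 codons. The exon of 5238 bases (chr2:91768020-91773257), the beta attachment region, held 27 in 1745. Of 4 RefSeq coding transcripts of VCAN, 2 have both exons, 1 has the alpha exon alone and 1 the beta exon alone. Windows of 90 bases, read from Sscrofa11.1 where such pairs are densest in each exon, are shown to set the 2 VCAN exons beside the large exons of ACAN and NCAN, with serine-glycine codon pairs in capitals.
VCAN alpha exon, chr2:91746622-91746711, plus strand: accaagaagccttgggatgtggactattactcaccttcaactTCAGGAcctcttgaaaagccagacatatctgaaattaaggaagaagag
VCAN beta exon, chr2:91771277-91771366, plus strand: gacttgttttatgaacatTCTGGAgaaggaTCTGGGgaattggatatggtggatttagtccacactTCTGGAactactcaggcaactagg
ACAN largest coding exon, chr7:54501897-54501986, plus strand: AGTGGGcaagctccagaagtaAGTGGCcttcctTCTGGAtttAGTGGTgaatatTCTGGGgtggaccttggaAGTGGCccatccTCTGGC
NCAN largest coding exon, chr2:58656347-58656436, minus strand: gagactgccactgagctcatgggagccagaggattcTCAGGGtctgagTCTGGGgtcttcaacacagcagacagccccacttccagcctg
The ACAN window held 7 pairs, the VCAN beta window 3, the NCAN window 2 and the VCAN alpha window 1.

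Libraries held 15118843 to 19729783 counts on genes (median 16413097). Levels of a gene are given in CPM, counts relative to library size scaled with the TMM library factors of edgeR, and levels are compared between genes as RPKM (CPM per kilobase of gene model), computed here with the deposited gene lengths. The libraries carried the labelled tissue's markers. At every day the summed level of the 8 neuron markers was at least 6050 CPM and no neuron, astrocyte or radial glia marker was at 0 counts in any library. Brains of female replicate 18 and male replicate 17 at GD45 were labelled with weights of 0.6653 and 0.7135, in the label's unit of mg, against 1.55 to 1.86 for the other brains of that day. Male GD45 replicate 17 also had the lowest median correlation with the other libraries of its group (0.945). All day comparisons were repeated without both small brains.

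Most of the matrix genes rose between GD45 and GD90. In the quasi-likelihood test of edgeR, adjusted by Benjamini-Hochberg over 16325 genes, 8 of 10 members were higher and 1, VCAN, was lower at GD90, while TNC did not pass (adjusted p = 0.0646). Among all genes tested, 28.3% were higher and 29.3% lower in the same comparison. Between GD45 and GD60, 4 members were higher and 0 lower, beside 9.35% and 7.37% of all genes. Between GD60 and GD90, 6 were higher and 1 lower, beside 21.4% and 20.9%. The median log2 fold change of the members was 0.27, 0.79 and 1.06 for GD60 against GD45, GD90 against GD60 and GD90 against GD45, and that of all genes tested lay between -0.03 and -0.01. The 3 comparisons share libraries, so none is evidence for another. Without both small brains the members called were 4, 9 and 9, in the order above.

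**Figure D1:**
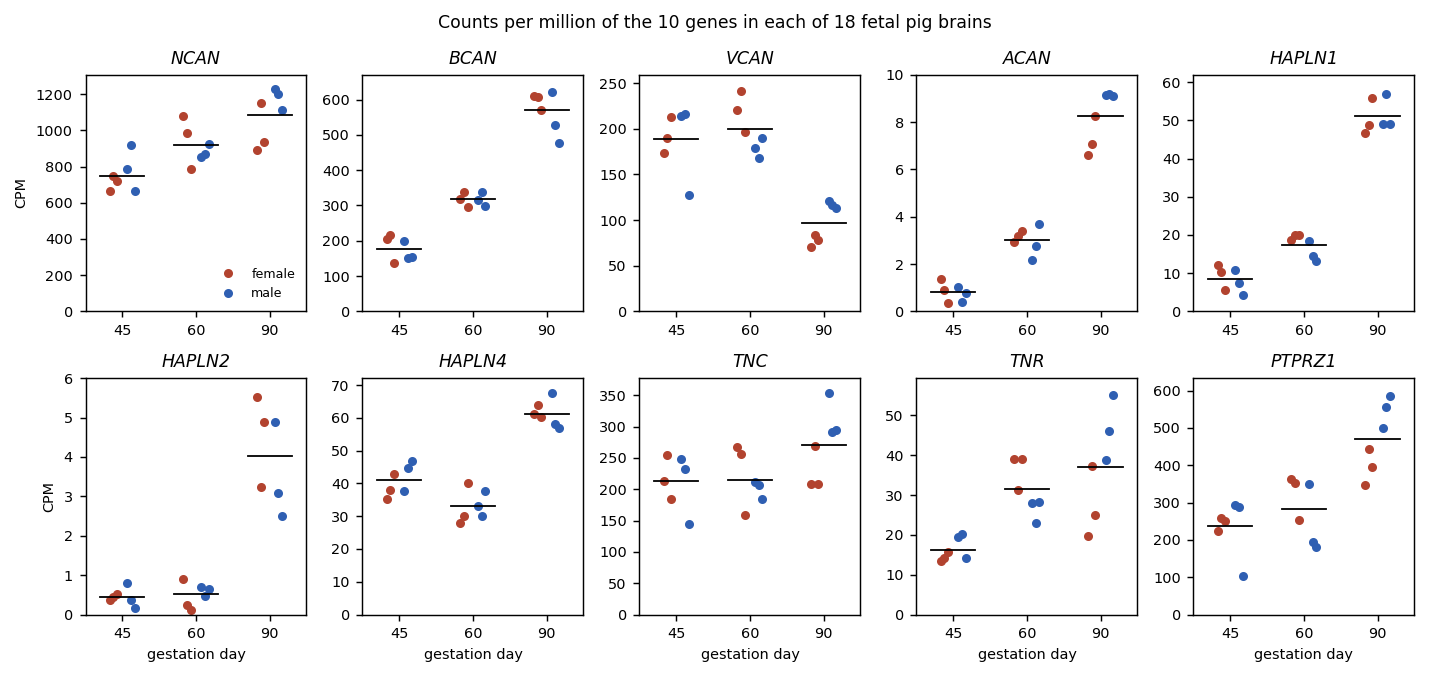
Level in CPM (vertical axis, from 0) of each gene against gestation day, with 1 point per library, red for females and blue for males, and the mean of the day's 6 libraries as a line. BCAN, ACAN and HAPLN1 stepped up at both intervals, HAPLN2 was at or under 0.898 CPM until GD60, and VCAN at GD90 lay at 70.5 to 121 CPM, below every earlier library.

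Neurocan and brevican, the lecticans of neurons and glia that are largely restricted to nervous tissue, differed in course. NCAN was at 663, 734 and 917 CPM (lowest, median, highest) at GD45, at 787, 897 and 1080 at GD60 and at 890, 1130 and 1230 at GD90. The days overlapped in NCAN, and the rise from GD45 to GD90 was 1.45-fold (log2 0.53 ± 0.10 SE, n = 6 against 6, adjusted p = 0.00025, edgeR). Neither shorter interval passed for NCAN (adjusted p = 0.0565 and 0.0616), although DESeq2 called both. BCAN was at 136, 178 and 216 CPM at GD45, 296, 316 and 339 at GD60 and 478, 590 and 621 at GD90. No BCAN value of one day fell within the range of another. BCAN rose 1.79-fold in each interval (log2 0.84 ± 0.11 SE each, adjusted p = 7.48e-05 and 1.55e-05, edgeR) and 3.22-fold over both.

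Aggrecan, the lectican with most chondroitin sulfate and a defining component of perineuronal nets as well as of cartilage, had the lowest mean RPKM of the members at every day, with a range that overlapped with that of HAPLN2 at GD45 and GD60. ACAN had 6 to 27 counts per library at GD45 (0.345, 0.833 and 1.38 CPM), 38 to 65 at GD60 (2.19, 3.07 and 3.71 CPM) and 107 to 156 at GD90 (6.59, 8.7 and 9.18 CPM). The 3 days did not overlap. ACAN rose 3.71-fold from GD45 to GD60 (log2 1.89 ± 0.26 SE, adjusted p = 0.00011, edgeR), 2.7-fold from GD60 to GD90 (adjusted p = 0.000103, edgeR) and 10-fold over both. Because ACAN is also a cartilage gene, cartilage markers were read beside it. The 8 cartilage markers summed to 25 to 42.4 CPM at GD45, 15.7 to 32.1 at GD60 and 46.4 to 79.9 at GD90. Of the 7 tested, 0 were lower at GD90 than at GD45 (beside 29.3% of all genes) and 2 were higher (beside 28.3%). These were the collagen gene COL11A2 (log2 3.26, adjusted p = 2.17e-08, edgeR) and the cartilage matrilin gene MATN1 (1.62, adjusted p = 0.00844, edgeR), the latter named after its value was seen. MATN1 was at 0 counts in 1 library and reached 0.956 CPM, and COMP was at 0 in 5 libraries and reached 0.331 CPM. The collagen genes COL2A1 and COL9A1, also named after their values were seen, had means of 9.19 and 21.8 CPM at GD45 and 5.98 and 18.1 at GD90 (adjusted p = 0.2 and 0.169, edgeR), and COL11A2 went from 4.09 to 39 CPM. Between GD45 and GD60, when ACAN rose, the median of the summed cartilage markers went from 41.3 to 26.2 CPM. The part of cartilage in the ACAN values was not tested.

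Versican, the lectican of the loose early matrix, ran the other way. VCAN was at 128, 202 and 216 CPM at GD45, 168, 193 and 241 at GD60 and 70.5, 98.3 and 121 at GD90. The first 2 days overlapped (log2 0.07 ± 0.11 SE, adjusted p = 0.744, edgeR), and every GD90 library was below every earlier one. VCAN was 2.08-fold lower at GD90 than at GD60 (log2 -1.06 ± 0.11 SE, adjusted p = 1.6e-06, edgeR) and 1.99-fold lower than at GD45. With counts from exons inside the RefSeq gene alone, without XRCC4, the log2 change from GD45 to GD90 was -1.07 (adjusted p = 4.07e-07, edgeR). The ratio of BCAN to VCAN in RPKM went from 2.41 to 4.57 at GD45 over 5.3 to 7.58 at GD60 to 15.9 to 32.7 at GD90, with no overlap between days. On the VCAN length that lies inside the RefSeq gene these ratios were lower, at 1.58 to 3, 3.48 to 4.97 and 10.5 to 21.4, and the days still did not overlap.

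**Figure D2:**
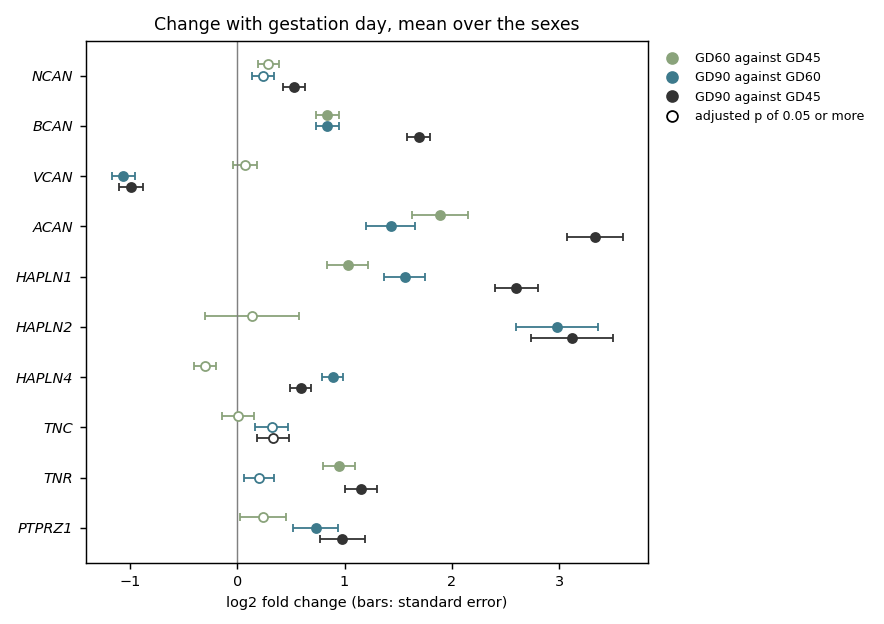
Log2 fold change (horizontal axis) of each gene in the 3 comparisons of gestation days, averaged over the sexes, with bars of 1 standard error, filled points where the adjusted p was under 0.05 and open points otherwise. ACAN, HAPLN2 and HAPLN1 had the greatest rises from GD45 to GD90 (log2 3.33, 3.12 and 2.60), and VCAN was the gene that fell.

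The link proteins rose on different schedules. HAPLN1, the link protein found in perineuronal nets and in cartilage, was at 4.2, 8.92 and 12.2 CPM at GD45, 13.2, 18.5 and 20 at GD60 and 46.7, 49.2 and 57 at GD90. Its days did not overlap, and it rose 2.05-fold in the first interval (log2 1.03 ± 0.19 SE, adjusted p = 0.00123, edgeR) and 2.95-fold in the second (adjusted p = 5.39e-06, edgeR). HAPLN2, the link protein at nodes of Ranvier of myelinated axons, had 2 to 15 counts per library at both GD45 and GD60 (medians 0.41 and 0.559 CPM) and 38 to 92 at GD90 (2.49, 4.06 and 5.51 CPM). It did not pass between GD45 and GD60 (log2 0.14 ± 0.44 SE, adjusted p = 0.862, edgeR), with 1 library of each day at 3 counts or under, and rose 7.89-fold from GD60 to GD90 (log2 2.98 ± 0.38 SE, adjusted p = 1.01e-05, edgeR). HAPLN4, the link protein that accompanies brevican at inhibitory synapses, was at 35.3, 40.5 and 47 CPM at GD45, 27.9, 31.7 and 40.1 at GD60 and 57, 60.8 and 67.5 at GD90. Its GD60 values overlapped those of GD45 (log2 -0.30 ± 0.10 SE, adjusted p = 0.0536, edgeR), and GD90 lay above both, 1.85-fold over GD60 (adjusted p = 3.63e-06, edgeR). With exons inside the RefSeq gene alone the first change of HAPLN4 was 0.03 on the log2 scale (adjusted p = 0.957, edgeR), so its direction between GD45 and GD60 depended on the exons counted, of which the table holds a small share for this gene.

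Per length, the make-up of both families moved toward the later genes. Of the 4 lecticans' summed RPKM, NCAN held 74.5 to 82.9% at GD45 and 60.7 to 70.4% at GD90, while BCAN went from 12.4 to 20.8% up to 27.6 to 37.9%. VCAN went from 3.7 to 5.77% at GD45 down to 1.16 to 1.73% at GD90, and ACAN from 0.0201 to 0.0909% up to 0.242 to 0.341%. Of the 3 link proteins' summed RPKM, HAPLN4 held 68.9 to 89.4% at GD45, 52.3 to 67.6% at GD60 and 41.8 to 47.9% at GD90. HAPLN1 held 9.61 to 28.8%, 28.5 to 43.7% and 41.3 to 50.1% at the 3 days, and HAPLN2 6.76 to 13.7% at GD90. The summed lecticans were at 133 to 176 RPKM at GD45, 176 to 226 at GD60 and 233 to 290 at GD90. The summed link proteins stood at 9.24 to 9.92, 8.86 to 11.6 and 22.5 to 26 RPKM, so they were level over the first 2 days and higher at the last. The deposited VCAN model counts 26088 bases, of which 17116 lie inside VCAN. On that length VCAN had mean values of 11, 11.5 and 5.62 RPKM in place of 7.26, 7.64 and 3.72, and held 5.53 to 8.52% of the lecticans at GD45 and 1.76 to 2.61% at GD90. Of the HAPLN4 model, 3634 of 5545 bases lie inside HAPLN4. On that length HAPLN4 held 77.2 to 92.8%, 62.6 to 76.1% and 52.3 to 58.3% of the link proteins at the 3 days, and HAPLN1 held 33.1 to 41% at GD90. These shares take all gene counts of the model as HAPLN4's own. Exons inside the gene, which hold a small part of those counts (14.4% in the exon table), gave GD90 medians of 10.3 CPM for HAPLN4 and 46.7 for HAPLN1. The order of HAPLN4 and HAPLN1 at GD90 is therefore not settled.

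**Figure D3:**
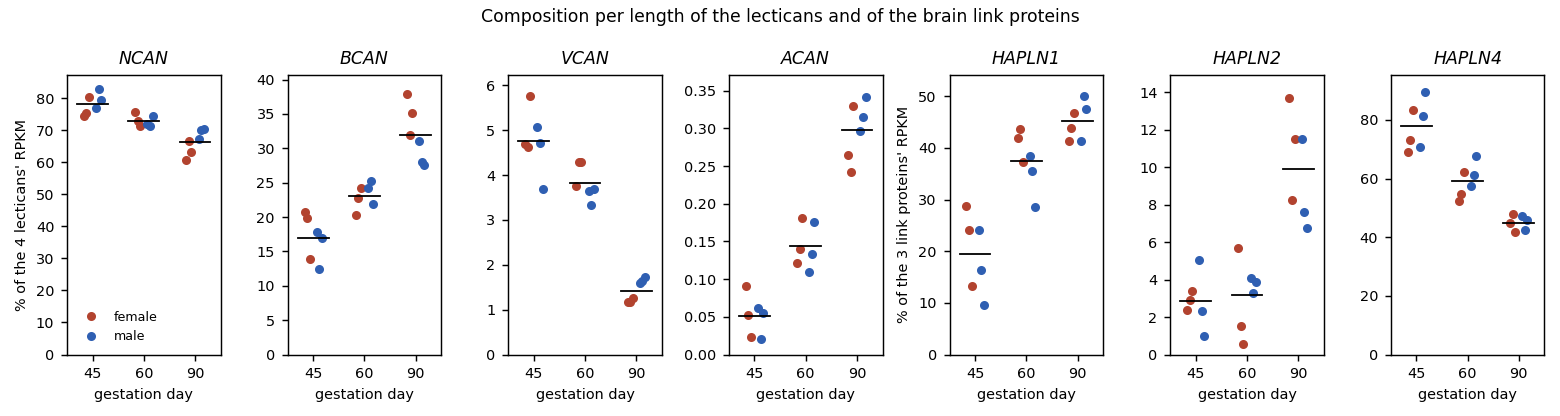
Share (vertical axis, in percent, from 0) of each lectican in the summed RPKM of the 4 lecticans and of each link protein in that of the 3 link proteins, against gestation day, with 1 point per library (red females, blue males) and the mean of the day as a line. NCAN, VCAN and HAPLN4 lost share and BCAN, ACAN and HAPLN1 gained it from GD45 to GD90.

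The order of the 10 genes in RPKM showed which neighbours were apart. NCAN was first at each day (means of 119, 146 and 173 RPKM) and its range did not overlap with that of the next gene. BCAN (25.6 RPKM) lay between PTPRZ1 (28.1) and TNC (23.8) at GD45 and overlapped with both, and came next to NCAN at GD60 and GD90 (45.9 and 82.4), where it still overlapped with PTPRZ1 (33.6 and 56.1). At GD90 HAPLN1 and HAPLN4 overlapped, and VCAN (3.72) overlapped with TNR (3.71). On the length inside the RefSeq gene HAPLN4 (15.6 to 18.5 RPKM) lay wholly above HAPLN1 (10.1 to 12.4 RPKM) at GD90. That takes 99.5% of the model's gene counts as HAPLN4's own, a share read from exon counts that came to 14.4% of them. VCAN (4.08 to 7.01 RPKM) on its inside length still overlapped with TNR (1.99 to 5.52 RPKM).

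Tenascins and PTPRZ1 bind the lecticans or act beside them. Tenascin-R, made by oligodendrocytes and some neurons and a binding partner of lecticans in nets, was at 13.4, 15 and 20.2 CPM at GD45, 23.1, 29.8 and 39 at GD60 and 19.8, 38 and 55.1 at GD90. Every GD60 brain was above every GD45 brain, and GD90 spread over both earlier days. TNR rose 1.93-fold from GD45 to GD60 (log2 0.95 ± 0.15 SE, adjusted p = 0.000302, edgeR) and did not pass from GD60 to GD90 (log2 0.20 ± 0.14 SE, adjusted p = 0.276, edgeR). That mean joined log2 0.82 in males (adjusted p = 0.00612, edgeR) and -0.41 in females (adjusted p = 0.153), and the first rise was log2 1.33 in females (adjusted p = 0.00117, edgeR) and 0.56 in males (adjusted p = 0.143). Tenascin-C, the form of the germinal zones and immature astrocytes, was at 145, 223 and 254 CPM at GD45, 159, 208 and 268 at GD60 and 208, 280 and 353 at GD90. The TNC days overlapped, and GD90 against GD45 came to log2 0.33 ± 0.15 SE. The ratio of TNC to TNR in RPKM was 11.5 to 19.8 at GD45, 4.54 to 9.95 at GD60 and 5.98 to 11.8 at GD90. PTPRZ1 was at 104, 255 and 293 CPM at GD45, 181, 302 and 364 at GD60 and 346, 472 and 586 at GD90. It rose 1.66-fold from GD60 to GD90 (log2 0.73 ± 0.21 SE, adjusted p = 0.0108, edgeR) with overlapping ranges, and GD90 lay above all of GD45 (log2 0.98, adjusted p = 0.000952, edgeR). From GD60 to GD90 PTPRZ1 came to log2 1.18 in males (adjusted p = 0.00718, edgeR) and 0.29 in females (adjusted p = 0.517), and the difference between the sexes in this was not significant (interaction of sex and day, 0 members called). The lowest PTPRZ1 value came from male GD45 replicate 17, the next lowest of that day being 223 CPM.

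In VCAN, 2 exons were called in a test of exon usage, beside the change in its level. Exon usage, the change of an exon relative to its gene from GD45 to GD90, was tested with diffSpliceDGE of edgeR over 76800 exons, of which 1.12% were called. Of 107 exons of the members that could be tested, 2 were called, and both were of VCAN and higher. No exon of ACAN could be tested. The alpha exon had log2 1.07 relative to its gene (adjusted p = 2.97e-05, edgeR), while the beta exon had 0.08 (adjusted p = 0.944). The other called exon (chr2:91699783-91700008, 226 bases, log2 1.51, adjusted p = 0.000339, edgeR), named outside the rule after its value was seen, lies upstream of both and had 43 counts in all at GD45, 135 at GD60 and 99 at GD90. The last VCAN exon had -0.38 (adjusted p = 0.328, edgeR). Of the exons of at least 300 bases, the ones nearest to the threshold in other members were in TNC (1410 bases, log2 0.60, adjusted p = 0.112), NCAN (420 bases, 0.73, adjusted p = 0.149) and PTPRZ1 (1260 bases, -0.72, adjusted p = 0.181), by the same edgeR test. The TNC and NCAN exons, which were higher, lie nearer to the start of their genes. The PTPRZ1 exon, which was lower, lies at the end of its gene. The part of transcript coverage along the genes in these exon values was not tested. For HAPLN1 (0.5), TNR (0.638), HAPLN2 (0.733), BCAN (0.812) and HAPLN4 (0.935) the smallest adjusted p among exons of that size was at least 0.5. Exon counts came to 14.4% of the gene counts for HAPLN4, 22.8% for ACAN and 25.5% for BCAN. They came to 43.9% for TNC, 50.6% for PTPRZ1 and 56.5% for TNR. A large part of the counts of these genes was thus outside the exon test.

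Counts of both large VCAN exons stood beside each other in every brain. Per base, the ratio of the alpha to the beta exon was 0.374, 0.352 and 0.296 in females and 0.296, 0.353 and 0.507 in males at GD45. At GD60 it was 0.454, 0.38 and 0.582 in females and 0.443, 0.452 and 0.518 in males. At GD90 it was 1.17, 0.926 and 0.816 in females and 0.908, 0.874 and 0.891 in males. Every GD90 brain was thus above every earlier brain, and GD45 and GD60 overlapped. Two-sided exact permutation tests on log2 ratios gave p = 0.00216 for GD90 against GD45 and against GD60 (n = 6 against 6), the smallest this design allows, and p = 0.0303 for GD60 against GD45. Adjusted over these 3 pairs of days, the exact p-values were 0.00324, 0.00324 and 0.0303. These tests take the 6 fetuses of a day as independent. With fetuses of equal day and litter size averaged, the ratio was 0.333 to 0.387 at GD45, 0.414 to 0.549 at GD60 and 0.853 to 1.03 at GD90, and the exact permutation p was 0.1 for each pair of days, the smallest that 3 against 3 allows. In level the beta exon went from a median of 8.66 CPM per kilobase at GD45 to 5.28 at GD90, and the alpha exon from 2.8 to 4.78, with overlapping ranges for both.

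**Figure D4:**
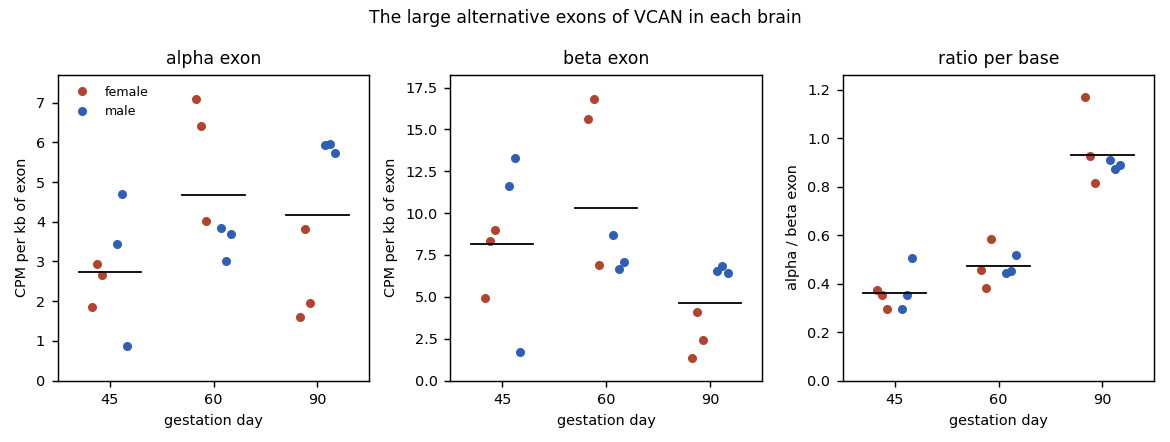
Level of the alpha exon (2940 bases) and the beta exon (5238 bases) of VCAN in CPM per kilobase of exon, and their ratio per base, against gestation day, with 1 point per library (red females, blue males) and the mean of the day as a line. The ratio lay between 0.296 and 0.582 in the 12 libraries of GD45 and GD60 and between 0.816 and 1.17 in the 6 of GD90.

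Coverage along VCAN differed between libraries. Its last exon, of 1522 bases, held 40.3 to 80.6% of the VCAN exon counts at GD45, 30.9 to 56% at GD60 and 27.5 to 61.2% at GD90. Within GD45 and within GD90 the brain with the largest share also had the highest ratio (80.6% with 0.507 in male replicate 17, and 61.2% with 1.17 in female replicate 2). At GD60 the brains with the largest shares (56% in male replicate 16 and 55.8% in female replicate 15) had the highest ratios (0.518 and 0.582). Other brains did not follow this order. At GD90 female replicate 9 had the next largest share (53.3%) and the lowest ratio (0.816). At GD45 female replicate 18, with a share of 55.8%, had the lowest ratio (0.296), equal to that of male replicate 11 (46.4%). Across days the shares overlapped, with medians of 54% at GD45, 50.2% at GD60 and 33.6% at GD90, while the ratios were highest at GD90. The part of transcript coverage in the ratio was not tested. Within the sexes, the alpha exon's usage was log2 1.22 in males (adjusted p = 0.00476, edgeR) and 0.92 in females (adjusted p = 0.241), and the sexes were not tested against each other in this.

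Sex was the study's other variable. Over the 3 days, 0 of 10 members differed between males and females (edgeR), 0 at an unadjusted p under 0.05 and 0 by DESeq2, beside 0.116% of all genes. The interaction of sex and gestation day called 0 members and 0% of all genes by edgeR. At an unadjusted p under 0.05 it took in 2 members, TNR and VCAN (adjusted p = 0.462 each, edgeR), beside 10.7% of all genes, and DESeq2 called 0 members and had the same number under 0.05 unadjusted. Within females, 4, 6 and 8 members were called for GD60 against GD45, GD90 against GD60 and GD90 against GD45, beside 7.22%, 27.1% and 38.8% of all genes. Within males the numbers were 3, 10 and 10, beside 5.61%, 34.5% and 47.8%. In males all 10 thus passed from GD60 to GD90, 9 of them higher.

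At GD90 every male brain held more VCAN and TNR than every female one, though 0 of 10 members passed between the sexes at that day by edgeR or by DESeq2. Of all genes tested 0.098% passed by edgeR. At an unadjusted p under 0.05 there were 3 members by each tool, beside 13.6% of all genes by edgeR. VCAN was at 70.5, 83.3 and 78.2 CPM in the 3 females and 121, 117 and 113 in the 3 males (log2 0.60 ± 0.16 SE, adjusted p = 0.35, edgeR). TNR was at 19.8, 37.3 and 25.1 CPM in females and 38.8, 46.2 and 55.1 in males (log2 0.77 ± 0.21 SE, adjusted p = 0.35, edgeR). TNC was at 209, 269 and 208 CPM in females and 353, 291 and 295 in males (log2 0.45 ± 0.21 SE, adjusted p = 0.36, edgeR). The male and female ranges did not overlap at GD90 for 5 of 10 members, PTPRZ1 and ACAN being the others, and they did not for 35.8% of all genes tested. All 5 were higher in males. They were also the members with the longest deposited gene models, of 8396 to 26088 bases against 1640 to 6913 for the rest. VCAN passed without male GD45 replicate 17 (adjusted p = 0.0283, edgeR) and TNR without female GD90 replicate 7 (log2 1.05, adjusted p = 0.0455, edgeR). These were the lowest values with 1 library left out, and the highest adjusted p was 0.807 for both VCAN and TNR (edgeR). At GD90 the last VCAN exon held 27.5 to 30.5% of the exon counts in males and 36.7 to 61.2% in females. After taking out a length trend fitted within the libraries, VCAN male against female at GD90 came to log2 0.21 (adjusted p = 0.494, edgeR). The deposited VCAN model counts 26088 bases, of which 17116 lie inside VCAN. Values of that fit for TNR, TNC, PTPRZ1 and ACAN are not given here, so the VCAN value stands for VCAN alone. The part of transcript coverage in the differences of the 5 members whose ranges did not overlap was not tested. At GD60 the order was the other way for both VCAN and TNR. VCAN was then at 221, 241 and 197 CPM in females and 179, 168 and 190 in males (log2 -0.30, adjusted p = 0.779, edgeR). TNR was at 39, 31.2 and 39 CPM in females and 28.1, 23.1 and 28.3 in males (log2 -0.46, adjusted p = 0.779, edgeR), and HAPLN1 was also lower in every male than in every female at GD60 (log2 -0.35, adjusted p = 0.779, edgeR). At GD60 0 of 10 members were called between the sexes, beside 16 of 16325 genes. At an unadjusted p under 0.05 there was 1 member, beside 784 genes (edgeR). The share of all genes whose ranges did not overlap was not counted at GD60, so no result about the members is read from these orders.

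The genes around the members were read from lists of the pathway, on GD90 against GD45 and edgeR's test throughout. In that comparison 28.3% of all genes tested were higher and 29.3% lower, and each list's counts are to be read beside these shares. Among sugar chain enzymes, 2 of 12 genes of chondroitin sulfate chain synthesis were higher and 1 lower. CSGALNACT1, which starts the chondroitin chain, rose (log2 1.75, adjusted p = 1.49e-08), as did XYLT1, the xylosyltransferase that primes core proteins (1.34, adjusted p = 4.7e-06), and CHSY1 fell (-0.50, adjusted p = 0.0132). Of 9 sulfotransferases and epimerases 4 were higher and 1 lower, with UST, the uronyl 2-O-sulfotransferase, going from 15.6 to 88.8 CPM (log2 2.50, adjusted p = 1.35e-10), CHST13 at log2 1.94 (adjusted p = 3.76e-05) and CHST15 at -0.63 (adjusted p = 0.000459). Of 9 hyaluronan synthases, receptors and hyaluronidases 2 were higher, HAS1 (0.64, adjusted p = 0.0274) and CD44 (0.58, adjusted p = 0.0347), and 1 lower, HMMR (-1.61, adjusted p = 1.96e-07), which is also a gene of dividing cells. The synthase genes HAS2 and HAS3 were on the list but not tested, and HAS1 had a mean of just 2.44 CPM.

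Matrix proteases cut the core proteins, and partners bind them. Of 13 matrix proteases and inhibitors 8 were higher and 2 lower, beside 28.3% and 29.3% of all genes tested. ADAMTS8 (log2 3.27, adjusted p = 2.35e-10) and ADAMTS20 (3.36, adjusted p = 2.01e-08), of the family that cuts lecticans, rose, and ADAMTS1 (-0.55, adjusted p = 0.00734) and TIMP1, an inhibitor of metalloproteases (-0.88, adjusted p = 0.0018), fell. Of 12 ligands and partners of PTPRZ1 and tenascins 6 were higher and 2 lower, among them CNTN1 (contactin 1; 2.23, adjusted p = 2.2e-08) and the integrin gene ITGA9 (1.66, adjusted p = 2.36e-07) upward and the growth factor gene MDK (midkine; -1.58, adjusted p = 2.41e-06) and CNTN2 (-0.65, adjusted p = 0.000415) downward. Of 7 genes for receptors of chondroitin sulfate proteoglycans and their partners 4 were higher, with RTN4RL1 (1.84, adjusted p = 2.08e-10) and EGFR (0.91, adjusted p = 8.86e-05), and 0 lower.

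Other matrix genes were mixed, and their counts stand beside 28.3% of all genes tested higher and 29.3% lower. Of 18 other brain proteoglycans 8 were higher and 7 lower, with CSPG5 (1.33, adjusted p = 1.79e-09) and SPOCK2 (1.44, adjusted p = 1.43e-07) upward and the glypicans GPC2 (-3.04, adjusted p = 1.8e-11) and GPC4 (-1.09, adjusted p = 4.58e-08) downward. The 3 other link proteins and tenascins rose, among them HAPLN3 (0.61, adjusted p = 0.00104) and TNXB (1.06, adjusted p = 0.000295). Of 8 genes of net-bearing cells and net modulators 6 were higher and 2 lower. PVALB, the parvalbumin gene of fast-spiking interneurons, had means of 0.451, 0.508 and 6.32 CPM at the 3 days (log2 3.80, adjusted p = 1.41e-05). CRTAC1, whose protein blocks a Nogo receptor, rose (2.44, adjusted p = 1.82e-11), and SEMA3A (-0.43, adjusted p = 0.00553) and OTX2, a homeobox factor taken up by netted neurons and made in choroid plexus (-2.04, adjusted p = 1.48e-07), fell.

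**Figure D5:**
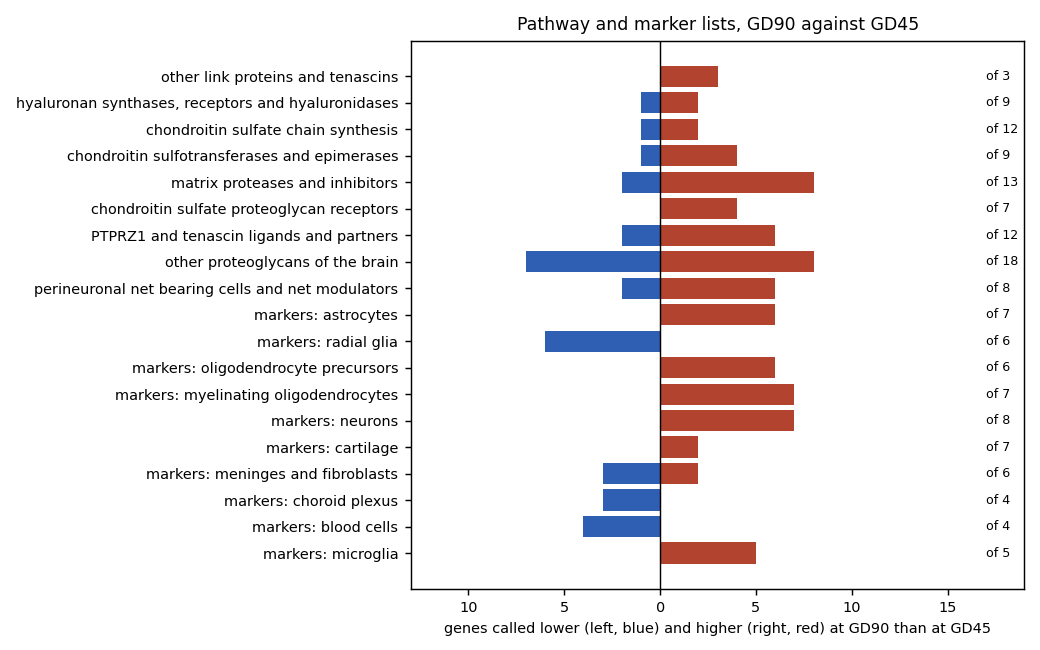
Number of genes of each pathway and marker list called higher (red, right) or lower (blue, left) at GD90 than at GD45 by edgeR's test, with the number tested at the right edge. Myelinating oligodendrocyte (7 of 7) and oligodendrocyte precursor markers (6 of 6) were higher, and radial glia (6 of 6) and blood markers (4 of 4) lower. Among all genes tested 28.3% were higher and 29.3% lower.

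Markers of cell types of the brain, its coverings and blood were read beside the members. Counts of markers called are for GD90 against GD45, where 28.3% of all genes tested were higher and 29.3% lower. The 7 astrocyte markers summed to 221 to 384 CPM at GD45, 462 to 595 at GD60 and 1660 to 2160 at GD90, and GFAP was at log2 4.48 and SLC1A3 at 1.28 (adjusted p = 5.01e-10 and 3.65e-09, edgeR, GD90 against GD45). The 6 oligodendrocyte precursor markers summed to 142 to 217, 297 to 332 and 584 to 778 CPM, with SOX10 (log2 2.54) and GPR17 (3.26) among them. The 7 myelinating oligodendrocyte markers stood at 63.4 to 83.9, 84.6 to 111 and 1880 to 3200 CPM, with MBP (log2 6.03) among them, and their step lay in the same interval as that of HAPLN2. The 6 radial glia markers summed to 1730 to 3360, 1300 to 1840 and 963 to 1380 CPM, with VIM (log2 -1.08) and NES (-2.31). The 3360 CPM came from male GD45 replicate 17, and the next highest sum of that day was 2030. Neuron markers were higher for 7 of 8, with SLC17A7 (2.49) and SYN1 (1.96), and microglia markers for 5 of 5, with CSF1R (1.26) and CX3CR1 (1.92). Meninges and fibroblast markers were mixed, 2 of 6 higher (COL1A1 at 0.58 and PDGFRB at 0.27) and 3 lower (COL3A1 at -0.86 and DCN at -1.50), choroid plexus markers lower for 3 of 4 (KCNJ13 at -1.19 and CLIC6 at -1.31) and blood markers for 4 of 4 (HBB at -1.38 and ALAS2 at -1.06). The part of cell numbers in the members' values was not tested.

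The genes most like each member were those with the highest Pearson r of log2 CPM over the 18 libraries, given as a description since gestation day runs through all of them. For HAPLN1 they were AQP4 (r = 0.993), RAB3B (0.991) and VCAM1 (0.988), for BCAN GFAP (0.991), CAMK2G (0.987) and OLIG1 (0.985), and for PTPRZ1 GABRB2 (0.989), PGM2L1 (0.983) and TBC1D9 (0.983). ACAN was most like CAMK2B (0.971), KCNAB1 (0.971) and DGKG (0.966), and NCAN like STUM (0.974), FAM135B (0.966) and FAM234B (0.966). VCAN had EMSY (0.972), VASH2 (0.964) and MED12 (0.964), and HAPLN2 had SOX8 (0.955), GPRC5B (0.955) and CPLX2 (0.947). For TNR the genes were RUBCN (0.954), MYCBP2 (0.943) and BSN (0.943), for TNC SORCS1 (0.943), ADAM9 (0.931) and COL27A1 (0.925), and for HAPLN4, the member with the lowest best match, KCNK12 (0.908), OLFML2B (0.904) and RNF13 (0.899). Among neighbouring genes r was 0.811 for BCAN and HAPLN2, 0.415 for NCAN and HAPLN4 and -0.685 for VCAN and HAPLN1 over the same libraries. Between members it was highest for BCAN with ACAN and with HAPLN1 (0.966 each).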

How the data were processed

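Total RNA of 18 whole fetal pig brains was enriched for poly(A) RNA and sequenced as paired-end reads. The authors deposited raw counts per gene and per exon, which featureCounts made on Ensembl gene models from HISAT2 alignments to Sscrofa11.1 after trimming by Trimmomatic. Counting options for strand and shared reads are not given in the sources used here. The 22 count columns belong to 18 libraries, 4 of which have a repeat run that was summed, and 0 columns were left without a library. The deposited transcript counts were not used.

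Gene counts were analysed in R 4.3.3 with edgeR 4.0.16 (filterByExpr, TMM, quasi-likelihood test, 1 model of 6 groups of sex and day, contrasts averaged over the sexes), and p-values were adjusted by Benjamini-Hochberg over all 16325 genes tested, which hold 99.9% of the counts. Calls are at an adjusted p under 0.05. Log2 CPM used a prior count of 2. Exon usage was tested with diffSpliceDGE over 76800 exons. Fetuses are separate animals, but those of a day with equal litter size may share a dam. Sequences and coding exons were read from RefSeq on Sscrofa11.1 with pysam 0.24.0, and figures were drawn with matplotlib 3.10.9.

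The members and 19 gene lists were chosen with earlier results of these data known. The lists name 8 symbols not analysed here. Named genes follow a rule: all members, per list and direction the 2 genes with the smallest adjusted p at GD90 against GD45 and a mean of at least 1 CPM, the 3 genes most like each member, and per member the exon of at least 300 bases with the smallest adjusted p. A gene that the rule names among the myelin markers is not reported here. Both tests were tested on simulated data. Alternatives were DESeq2 1.42.0, library size without TMM, other filters, removal of each library's trend on gene length, single sexes, litters summed or as a term, and each library left out. Counts from exons and lengths inside the RefSeq gene, VCAN exon ratios averaged by litter, and fits without 2 small brains were added after seeing the data.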

Additional observations from a re-analysis of the deposited data

Results flagged for a closer look

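PTPRZ1 in male GD45 replicate 17 was at 104 CPM, and the next lowest of the 6 libraries of that day was at 223, and on the log2 CPM scale the gap took up 0.738 of the whole range of the day. Among 30 groups of 6 libraries tested in this way, 1 was set apart like this, where chance gives about 1 in 20. The same library had the lowest GD45 values of NCAN (663 CPM), VCAN (128), TNC (145), HAPLN1 (4.2) and HAPLN2 (0.155) and the highest of HAPLN4 (47). In BCAN, ACAN and TNR it was not the lowest. It had the lowest TMM factor of all libraries (0.849) and 80.6% of its VCAN exon counts in the last exon. Its radial glia markers (3360 CPM summed) and blood markers (780) were the highest of that day.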

How the results depend on the processing

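Numbers of members called stayed within 1.5 times the number reported in every alternative run. With 1 library left out they were 4 to 6 for GD60 against GD45, 7 to 9 for GD90 against GD60, 9 to 10 for GD90 against GD45, and 0 for sex and for the interaction. The number of member exons called, 2, became 0 in the female libraries alone, and ranged from 1 (without female GD90 replicate 7) to 6 (without male GD45 replicate 14), while the VCAN alpha exon relative to its gene stayed at log2 0.94 to 1.21 and past the threshold with 1 library left out. Changes of direction fell on values that did not pass. The VCAN beta exon relative to its gene came to -0.11 in females, -0.02 without the 2 small brains and -0.05 to 0.21 with 1 library left out. VCAN GD60 against GD45 came to -0.11 with the trend on gene length removed, -0.06 in males, 0 without the small brains and -0.05 to 0.13 with 1 library left out. TNC GD60 against GD45 came to -0.01 with no filter, -0.06 both with the length trend removed and in males, -0.15 without the small brains, 0 with litters summed and -0.11 to 0.11 with 1 library left out. HAPLN2 GD60 against GD45 was -0.09 in females and -0.46 to 0.51 with 1 library left out, HAPLN4 GD60 against GD45 was 0.03 on RefSeq exons, and TNR GD90 against GD60 was -0.41 in females (adjusted p = 0.153, edgeR) beside 0.82 in males (adjusted p = 0.00612). Of the other alternatives for single values, 311 kept direction and side of the threshold, 15 came past it and 4 lost it: the VCAN alpha exon in females, TNR GD60 against GD45 in males (log2 0.56, adjusted p = 0.143, edgeR), and PTPRZ1 GD90 against GD60 and PTPRZ1 GD90 against GD45 in females (0.29 and 0.69, adjusted p = 0.517 and 0.0814). The cause of these moves was not tested. ACAN and HAPLN2 had at most 27 and 15 counts in any GD45 library, which limits their early values. The groups share no replicate numbers, and a fit with litter, read from equal litter size, as a term called 0 members between the sexes (1 at an unadjusted p under 0.05).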
